A study of Mus musculus with 6 samples.

Results

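The 10 genes described here encode the lipoprotein and carrier proteins that the yolk sac secretes: Apob, Mttp, Apoa1, Apoa2, Apoa4, Apoc2, Apom, Ttr, Rbp4 and Afp. They were chosen by name, as genes known for this secretory role, but with earlier results on these arrays known, so their counts and ranks below describe the arrays and are no independent support. All 10 were measured among the 18193 genes tested. The arrays came from whole mouse embryos at embryonic day 8.5, with 3 arrays of Fz2-/-; Fz7-/- embryos (the double knockout) and 3 of Fz2+/+; Fz7-/- embryos (the single knockout). Both groups therefore lacked Fz7 and differed in Fz2, and both had a mixed C57BL6/129 background and mixed gender by their labels. Fz2 and Fz7 (gene symbols Fzd2 and Fzd7) are Frizzled receptors for Wnt ligands. Pooling of embryos, litters and removal of the yolk sac are not given in the labels. Replicates may thus share a source, and the p-values measure only how far these particular arrays differ.

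Before the placenta takes over, the mouse embryo is fed through the visceral endoderm, the outer epithelium of the yolk sac. This epithelium takes up maternal lipid and protein at its outer face and releases lipoproteins and carrier proteins toward the embryo. Apob is the structural protein of the large lipoproteins, and Mttp, the microsomal triglyceride transfer protein, loads it with lipid. Exchangeable apolipoproteins coat the particles, Rbp4 and Ttr carry retinol and thyroid hormone, and Afp is the fetal counterpart of serum albumin. Many of the same genes are expressed later in the liver.

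Values are the authors' log2 expression values, so a difference of 1 is a doubling, and levels of different genes are not compared because each probe set has its own brightness. Fzd2 separated the groups as labelled, at 7.54 ± 0.21 in the double knockout and 9.95 ± 0.08 in the single knockout (SD, n = 3 each), and was the only gene past the threshold of 0.05 in limma (log2 difference -2.42, SE 0.11, adjusted p = 0.00567). Double knockout replicate 1 was unlike the rest. Its correlation with the other 5 arrays across genes was 0.986 to 0.990, against 0.997 to 0.998 among the rest, and 479 genes departed by over 1 log2 unit from the others' mean, against 18 to 37 in any other array. Group differences of the genes and lists tested below are given with and without it.

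All 10 genes were higher in double knockout replicate 1 than in any other array. The gap to the next array ran from 1.69 to 3.50 on the log2 scale, and the level in this array was 4.03-fold (Apoa2) to 14.3-fold (Apob) the mean of the other 5. With all arrays the groups overlapped for every one of the 10. Without that array they overlapped for 8, while for Apoa4 and Rbp4 both remaining double knockout arrays lay below all single knockout arrays. None passed the test. The higher level in a whole-embryo sample cannot be divided into more cells of a type and more RNA per cell.

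The first pair builds the particle. Apob had values of 11.29, 7.79 and 6.95 in the 3 double knockout arrays, in the order of their replicate numbers, against 7.57, 7.19 and 7.74 in single knockout replicates 1 to 3. Its highest array was double knockout replicate 1 and its lowest double knockout replicate 3, so the extremes of all 6 values were both in the double knockout. The group difference was 1.18 (SE 1.06, limma adjusted p = 0.879), and without double knockout replicate 1 it was -0.13 (SE 0.27, limma adjusted p = 0.955). Mttp read 9.23, 6.86 and 7.13 in the double knockout, against 6.88, 6.82 and 7.04 in the single knockout. Apart from the first array these Mttp values lay within 0.31 of each other, in mixed order between the groups. Its difference was 0.83 (SE 0.59, limma adjusted p = 0.872), or 0.08 (SE 0.11, limma adjusted p = 0.929) without that array.

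Among the exchangeable apolipoproteins, Apoa1 is the main protein of high-density lipoprotein (HDL), the small particle that carries cholesterol. Apoa1 had values of 12.47, 9.53 and 9.38 in the double knockout, against 9.31, 9.59 and 10.03 in the single knockout. Replicates 2 and 3 of the double knockout lay inside the single knockout range. The group difference of Apoa1 was 0.82 (SE 0.81, limma adjusted p = 0.885), or -0.19 (SE 0.20, limma adjusted p = 0.917) without double knockout replicate 1. Apoa2, another HDL protein, read 8.96, 7.16 and 6.94 in the double knockout, against 6.78, 6.85 and 7.00 in the single knockout. Its difference was 0.81 (SE 0.51, limma adjusted p = 0.872). Without double knockout replicate 1 its mean was 0.17 above that of the single knockout, the highest such difference of the 10 (SE 0.10, limma adjusted p = 0.811).

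Apoa4, an apolipoprotein secreted during lipid absorption, read 10.11, 6.68 and 6.38 in the double knockout, against 6.80, 6.77 and 6.72 in the single knockout. The 3 single knockout arrays lay within 0.08 of each other and both remaining double knockout arrays lay below them. Without double knockout replicate 1 the Apoa4 difference was -0.23 (SE 0.10, limma adjusted p = 0.759), in place of 0.96 (SE 0.94, limma adjusted p = 0.883). Apoc2, the cofactor of lipoprotein lipase, read 12.28, 8.89 and 9.09 in the double knockout, against 8.70, 8.90 and 9.35 in the single knockout. Its difference was 1.10 (SE 0.88, limma adjusted p = 0.875), and 0.0045 (SE 0.19, limma adjusted p = 0.998) without the first array.

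Apom and Rbp4 are lipocalins, small proteins that hold a fatty molecule in a barrel-shaped pocket. Apom rides on HDL and carries sphingosine-1-phosphate. It read 11.01, 8.35 and 8.67 in the double knockout, against 8.26, 8.24 and 8.66 in the single knockout. Replicate 3 was the higher array in each group once double knockout replicate 1 was set aside. The Apom difference was 0.96 (SE 0.67, limma adjusted p = 0.872) with all arrays and 0.12 (SE 0.16, limma adjusted p = 0.929) without that one. Rbp4 carries retinol, the precursor of retinoic acid, and read 12.10, 9.54 and 9.68 in the double knockout, against 9.76, 9.87 and 10.26 in the single knockout. The first Rbp4 value was above all single knockout arrays and the other two were below all of them. Its difference was 0.48 (SE 0.67, limma adjusted p = 0.911) with all arrays and -0.35 (SE 0.15, limma adjusted p = 0.763) without double knockout replicate 1.

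Ttr, transthyretin, binds thyroxine and holds Rbp4 in the circulation. Ttr had values of 13.78, 11.68 and 11.71 in the double knockout, against 11.65, 11.53 and 12.09 in the single knockout. Afp read 12.44, 9.83 and 9.80 in the double knockout, against 9.72, 10.08 and 10.35 in the single knockout. For both genes the last 2 double knockout arrays lay close together and sat within the single knockout range. The differences were 0.63 (SE 0.57, limma adjusted p = 0.879) for Ttr and 0.64 (SE 0.71, limma adjusted p = 0.896) for Afp. Without double knockout replicate 1 they were -0.07 (SE 0.16, limma adjusted p = 0.967) for Ttr and -0.24 (SE 0.17, limma adjusted p = 0.864) for Afp.

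**Figure D1:**
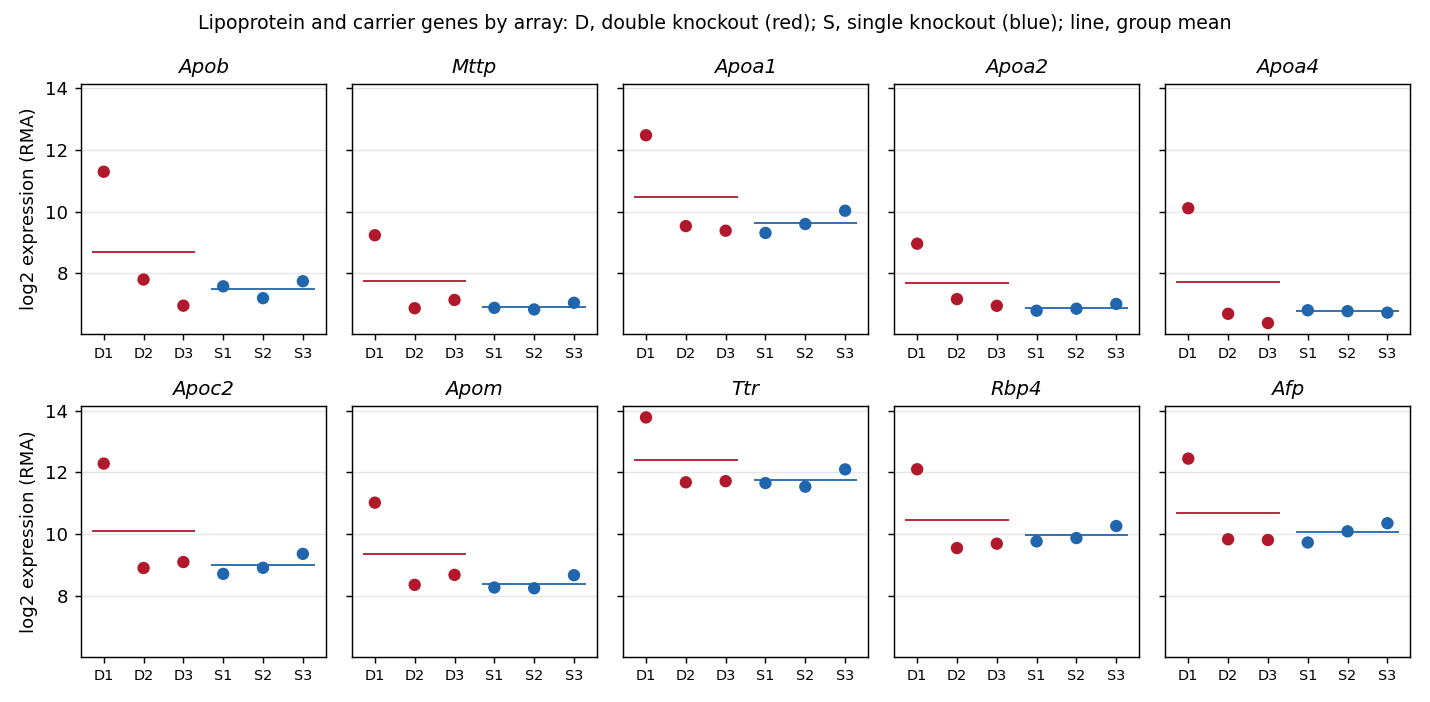
Log2 expression (vertical axis) of each of the 10 genes in double knockout replicates 1 to 3 (D1 to D3, red) and single knockout replicates 1 to 3 (S1 to S3, blue), with the group means as lines. D1 is the highest array in every panel, by 1.69 or more, and the other 5 arrays of a gene lie within 0.85 of each other.

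Set against all genes, the differences with all 6 arrays ran from 0.48 (Rbp4) to 1.18 (Apob), with a median of 0.82, where the median over all 18193 genes was -0.0093. Of the 10 genes 0 passed the test by limma, also at an unadjusted p under 0.05, where 0.0055% of all genes passed after adjustment and 4.96% at the unadjusted level. Groups did not overlap for 0 of the 10, against 11.4% of all genes. The exact two-sided permutation p of single genes was between 0.2 and 1, and 3 against 3 arrays cannot go below 0.1. The standard errors, 0.51 to 1.06, were of the size of the differences themselves.

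Without double knockout replicate 1 the median difference of the 10 genes was -0.098, with 4 higher and 6 lower, where the median over all genes was -0.0067. Again 0 of 10 passed, adjusted or at an unadjusted p under 0.05, against 0.0055% and 6.67% of all genes. Groups did not overlap for 2 of the 10, Apoa4 and Rbp4, both lower in the double knockout, while 22.3% of all genes did not overlap in that smaller comparison. Every 95% confidence interval included no difference. As ratios of double to single knockout, the intervals from these 5 arrays ran from 0.888 to 1.26 for Mttp and 0.957 to 1.33 for Apoa2. For Apob, the widest of the 10, the interval ran from 0.581 to 1.44, and for Rbp4 from 0.609 to 1.01. They hold for the probe set used and take the arrays as independent, which the labels do not settle.

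**Figure D2:**
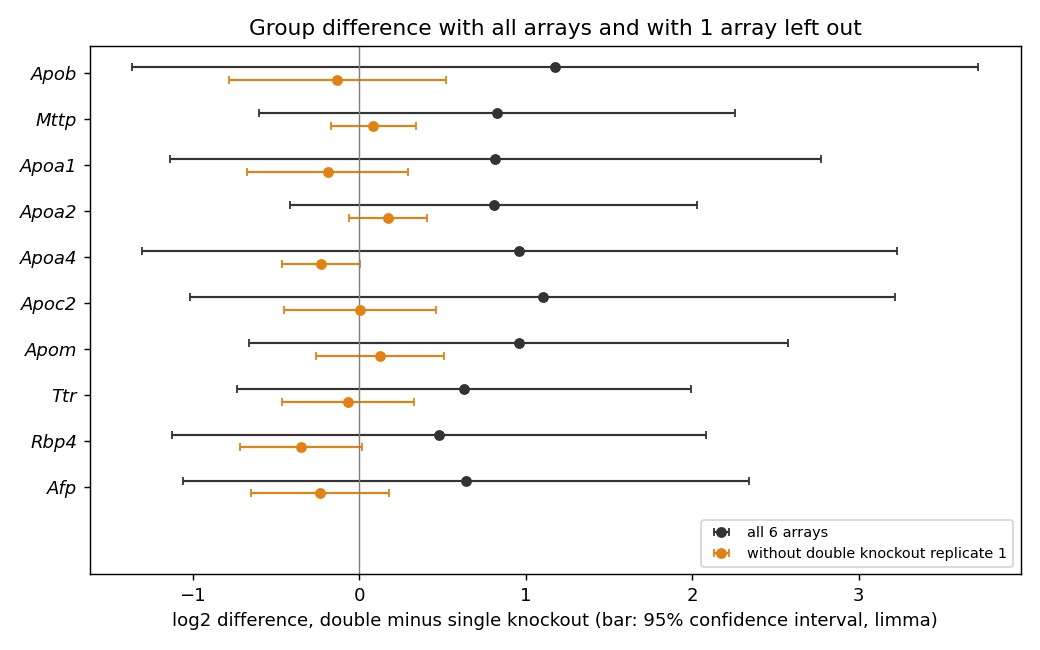
Log2 difference of the double knockout minus the single knockout (horizontal axis) for each gene, with 95% confidence intervals from limma, from all 6 arrays (dark) and without double knockout replicate 1 (orange). The dark points lie between 0.48 and 1.18 with wide intervals, the orange points between -0.35 and 0.17 with narrower ones, and all intervals include 0.

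The size of the excess in double knockout replicate 1 differed among the genes. Apob stood 3.84 above the mean of the other 5 arrays, Apoa4 3.44, Apoc2 3.29 and Apoa1 2.91. Apom (2.58), Afp (2.49), Mttp (2.28), Rbp4 (2.28), Ttr (2.05) and Apoa2 (2.01) followed. These values describe 1 array and have no replicate check. Over all genes 1.16% stood more than 1 log2 unit above the mean of the others in this array and 1.47% more than 1 below, while 10 of the 10 lipoprotein and carrier genes stood above and 0 below. By rank among the 18193 genes, Apob was number 4, Apoa4 number 9, Apoc2 number 11 and Apoa2, the lowest of the 10, number 58.

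**Figure D3:**
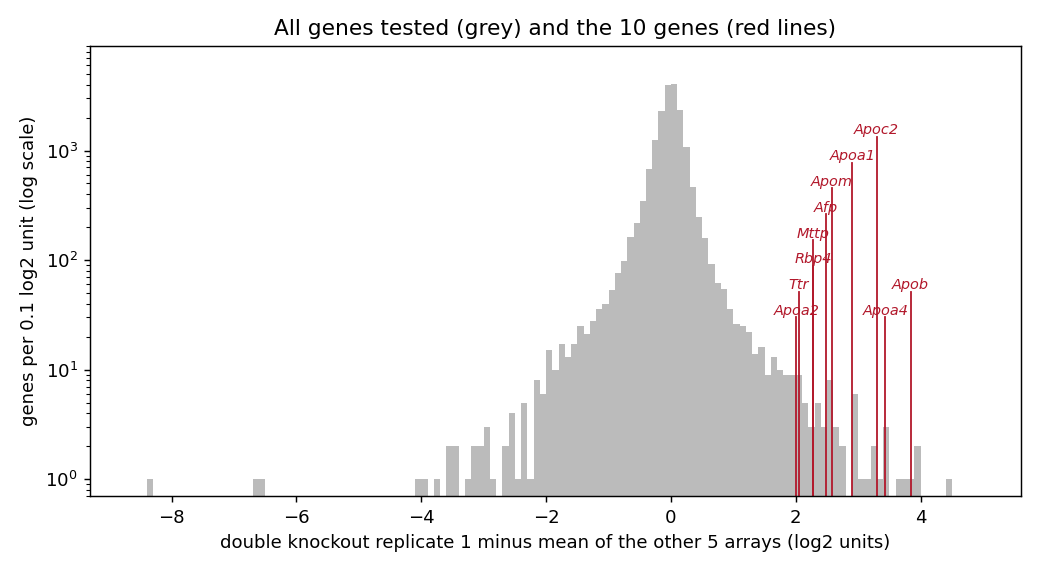
Histogram of all 18193 genes (grey) by their value in double knockout replicate 1 minus the mean of the other 5 arrays, in log2 units; the vertical axis is logarithmic. Red lines mark the 10 genes, which lie between 2.01 (Apoa2) and 3.84 (Apob), in the upper tail.

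The other 5 arrays also had an order. Single knockout replicate 3 was the highest of them for 5 genes (Apoa1, Apoc2, Ttr, Rbp4 and Afp), double knockout replicates 2 and 3 for 2 genes each, and single knockout replicate 1 for Apoa4. Single knockout replicate 3 was the lowest for 0 genes and single knockout replicate 1 for 4. The spread over these 5 arrays ran from 0.31 for Mttp to 0.85 for Apob. Taken as a mean over the 10 genes relative to the single knockout mean, the arrays stood at 2.68, -0.05 and -0.11 in the double knockout, against -0.14, -0.10 and 0.24 in single knockout replicates 1 to 3.

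Repeated probe sets of a gene shared the excess in double knockout replicate 1 with 3 exceptions. The 10 genes had 24 probe sets in all, 7 genes had more than 1, and 21 probe sets were more than 1 log2 unit higher in double knockout replicate 1 than the mean of the others. The 4 Apoa1 probe sets stood 2.85 to 3.04 higher and the 4 Ttr probe sets 1.95 to 2.19 higher. Both Apoa4 probe sets were lower in the double knockout without that array, with differences of -0.23 for the brighter and -0.34 (SE 0.07, limma adjusted p = 0.826 over all probe sets with a single gene) for the dimmer. For Mttp the sign depended on the probe set, at 0.08 for the one used and -0.11 (SE 0.16, limma adjusted p = 0.96 over all probe sets with a single gene) for the other, so its place among the genes higher without that array was not shared by both. The exceptions were the dimmer Apob probe set, which read 5.55, 5.26 and 5.16 in the double knockout against 5.26, 5.17 and 5.19 in the single knockout, and the 2 dimmest of 5 Afp probe sets, 0.29 and 0.28 above the mean of the others in double knockout replicate 1. Some probe sets of Apoa1, Apoa4, Ttr and Afp carry the suffix that the array maker gives to probes shared with other sequences, so their values may include related transcripts.

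Apolipoprotein genes lie in clusters, and the neighbours of the 10 genes were read from the RefSeq gene order (GRCm38.p6, names only). Of 47 measured genes within 3 places of a member, 3 stood more than 1 log2 unit higher in double knockout replicate 1, and all 3 were among the 5 apolipoprotein neighbours. Beside Apoa1 and Apoa4 on chromosome 9, Apoc3, an inhibitor of lipoprotein clearance, stood 1.84 higher, Apoa5 0.51 and Sik3, Zpr1 and the further neighbours between -0.20 and 0.13. Beside Apoc2 on chromosome 7, Apoe, a ligand of lipoprotein receptors, stood 2.00 higher and Apoc1 1.81 higher, while Apoc4, which lies between Apoc2 and Apoc1, stood 0.12 higher. On chromosome 5, Afp stood 2.49 higher between Alb (-0.10), the adult serum albumin gene, and Afm (-0.0064). Alb was dim in every array (4.18 to 4.75). Of the 42 other neighbours 0 stood more than 1 higher, but Dsg2 beside Ttr (0.86), Pde6c beside Rbp4 (0.82) and Rassf6 near Afp (0.80) came close. The neighbours were looked at after earlier results on these arrays were known.

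**Figure D4:**
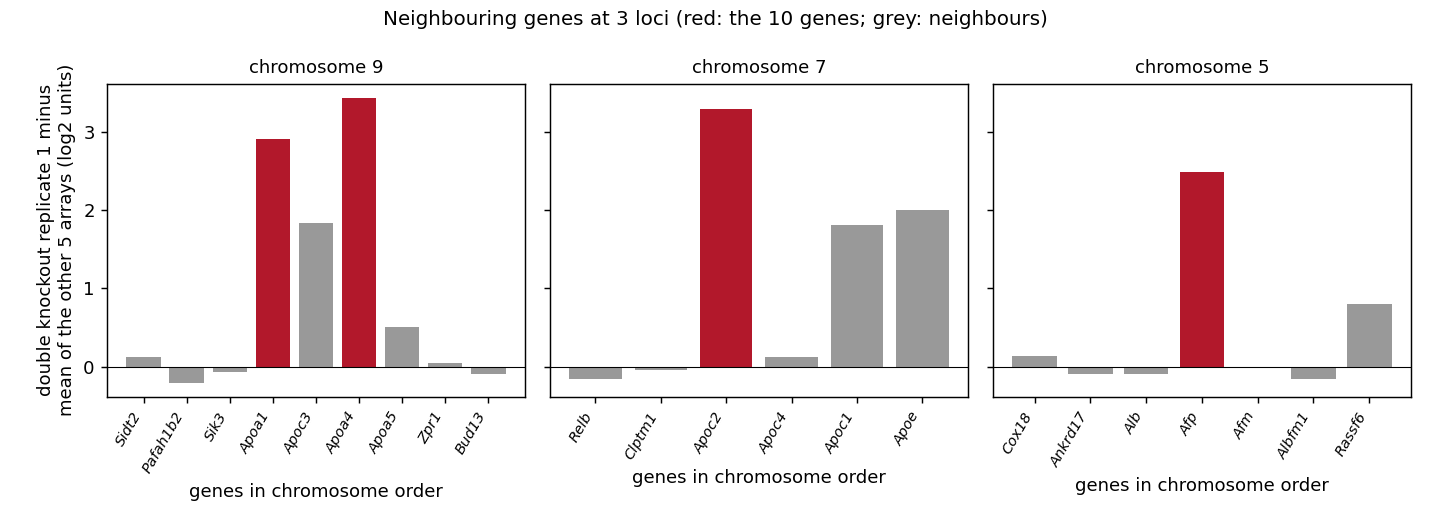
Value in double knockout replicate 1 minus the mean of the other 5 arrays (vertical axis, log2 units) for genes in chromosome order around Apoa1 and Apoa4, around Apoc2, and around Afp. Members are red and neighbours grey. Apoc3, Apoc1 and Apoe stand between 1.81 and 2.00, Rassf6 stands at 0.80, and Alb and Afm lie near 0.

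Because the genes were high together in 1 array, their promoters were searched for 6 short motifs of factors known to act on liver and yolk sac genes. The windows ran from 250 bases before to 50 bases after a start in RefSeq (GRCm38.p6), 11 windows for 9 of the 10 genes, on both strands. The 3 stretches below, cut where the annotated gene begins, show the matches in Afp (chr5:90490464-90490713, plus strand), Apoc2 (chr7:19677942-19678191, minus strand) and Apob (chr12:7977427-7977628, plus strand), each 5′ to 3′ with matched letters in capitals.
Afp: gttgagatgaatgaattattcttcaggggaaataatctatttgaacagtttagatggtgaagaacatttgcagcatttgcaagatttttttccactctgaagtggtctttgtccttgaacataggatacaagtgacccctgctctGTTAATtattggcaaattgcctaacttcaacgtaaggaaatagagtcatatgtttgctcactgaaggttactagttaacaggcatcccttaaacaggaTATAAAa
Apoc2: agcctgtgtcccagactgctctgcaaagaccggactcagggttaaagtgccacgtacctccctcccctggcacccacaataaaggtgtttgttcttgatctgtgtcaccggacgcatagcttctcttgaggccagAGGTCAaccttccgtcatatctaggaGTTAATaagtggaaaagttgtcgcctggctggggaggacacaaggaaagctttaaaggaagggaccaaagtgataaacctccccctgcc
Apob: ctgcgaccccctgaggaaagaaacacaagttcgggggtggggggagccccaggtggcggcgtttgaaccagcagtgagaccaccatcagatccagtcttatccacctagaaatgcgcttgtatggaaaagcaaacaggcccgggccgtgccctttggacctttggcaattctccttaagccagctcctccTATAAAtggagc
In Afp the capitals are GTTAAT, a motif of HNF1, and TATAAA, the letters of a TATA box. In Apoc2 they are AGGTCA, a motif of nuclear receptors, followed by GTTAAT, and in Apob they are TATAAA. The Apoc2 window holds a further AGGTCA, beginning at 43 after its start, which lies past the end of the stretch shown. Counted from the start used for the window, TATAAA begins at -7 in Afp and -60 in Apob. The Apob stretch is only 202 bases long, because its annotated gene begins before the start used for the window. A match describes letters and not a bound site.

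Over all windows, GTTAAT was held by 2 of the 11, in Apoc2 and Afp, against 7.10% of 32851 promoter windows. AGGTCA was held by 2 of the 11, in Apoa2 and Apoc2, against 16.3%. TGTTTAC, a FOXA motif, was held by 2 of the 11, in Apoa2 and Rbp4, against 3.65%. TATAAA was held by 4 of the 11, in Apob, Apoa2, Rbp4 and Afp, against 13.6%. CAAAGTCC, an HNF4 motif, and AGATAA, which GATA factors bind, were held by 0 of the 11, against 1.42% and 11.2%. No motif was held by all 9 genes. Exact matches to short motifs cannot show whether genes share a regulator, and this was not tested. The motifs could overlap within a window, and no overlap occurred in the 3 stretches shown.

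Other genes of lipoprotein biology were split. Of 31 measured genes of assembly, lipid exchange and lipoprotein receptors outside the 10, 12 were higher and 19 lower in the double knockout. Their median was -0.030 (-0.048 without double knockout replicate 1). After adjustment 0 passed in either direction, and 5 of the 31 had an unadjusted limma p under 0.05, against 4.96% of all genes. In double knockout replicate 1, 5 stood more than 1 log2 unit higher, among them Apoc3, Apoe and Apoc1, and 1 more than 1 lower. The general secretory genes P4hb, which is also the partner subunit of Mttp, and Sar1b, which moves lipoprotein cargo out of the endoplasmic reticulum, stood -0.03 and -0.01 from the mean of the others in that array. The smallest unadjusted p belonged to the cholesterol exporters Abcg1 (-0.18, SE 0.06) and Abcg8 (-0.22, SE 0.07), both at limma adjusted p = 0.872. With that array left out they differed by -0.18 (SE 0.06, limma adjusted p = 0.707) for Abcg1 and -0.18 (SE 0.07, limma adjusted p = 0.727) for Abcg8.

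Genes that handle retinoids and thyroid hormone, the cargo of Rbp4 and Ttr, did not share the excess. Of 15 measured, 8 were higher and 7 lower, with a median of 0.0039 (-0.041 without double knockout replicate 1). After adjustment 0 passed in either direction, and 3 of the 15 had an unadjusted limma p under 0.05, against 4.96% of all genes. In double knockout replicate 1, 0 stood more than 1 log2 unit higher and 1 more than 1 lower. The retinaldehyde dehydrogenase gene Aldh1a1 differed by -0.21 (SE 0.07) and the retinol esterifying enzyme gene Lrat by 0.24 (SE 0.09), both at limma adjusted p = 0.872. Both were dim, at 3.68 to 3.98 for Aldh1a1 and 3.22 to 3.66 for Lrat, under the array medians of 5.79 to 5.82. Their values may thus be background. From the 5 other arrays Aldh1a1 differed by -0.19 (SE 0.07, limma adjusted p = 0.739) and Lrat by 0.24 (SE 0.10, limma adjusted p = 0.740). The retinol uptake receptor gene Stra6 read 6.78, 6.70 and 6.87 in the double knockout, against 6.67, 6.90 and 7.02 in the single knockout.

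Other secreted plasma proteins stood above both of these lists in double knockout replicate 1. Of 22 measured, 18 were higher and 4 lower, with a median of 0.19 (0.061 without double knockout replicate 1). After adjustment 0 passed in either direction, and 3 of the 22 had an unadjusted limma p under 0.05, against 4.96% of all genes. In double knockout replicate 1, 11 stood more than 1 log2 unit higher. Serpina1b, a protease inhibitor gene with near-identical copies that the probes may not separate, read 6.80, 5.07 and 5.79 in the double knockout, against 4.51, 4.71 and 4.79 in the single knockout (difference 1.22, SE 0.41, limma adjusted p = 0.872). Its groups did not overlap, and without double knockout replicate 1 it still differed by 0.76 (SE 0.21, limma adjusted p = 0.701). Plg, the plasminogen gene, differed by 0.67 (SE 0.25, limma adjusted p = 0.872), or 0.36 (SE 0.07, limma adjusted p = 0.677) without that array.

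Transcription factors of endoderm and liver were split 9 higher to 6 lower of 15 measured, with a median of 0.17 (0.0071 without double knockout replicate 1). After adjustment 0 passed in either direction, and 2 of the 15 had an unadjusted limma p under 0.05, against 4.96% of all genes. Hnf4a, a nuclear receptor known to drive apolipoprotein genes in visceral endoderm and liver, read 8.47, 6.60 and 6.88 in the double knockout, against 6.71, 6.76 and 6.97 in the single knockout. It shared the pattern of the 10 genes, 1.68 higher in the first array and otherwise overlapping. Of the 15 factors, 2 stood more than 1 log2 unit higher in that array and 1 more than 1 lower. Foxa3, a forkhead factor of endoderm, stood 1.58 higher and Foxa2 0.37. Nr2f2, an orphan nuclear receptor, stood -1.94 from the mean of the others and Sox7, an endoderm and endothelial factor, -0.42. Sox17 and Foxa1 had the smallest unadjusted p of this list, with differences of 0.47 (SE 0.18) for Sox17 and 0.26 (SE 0.10) for Foxa1, both at limma adjusted p = 0.872. Leaving out the first array, they were 0.27 (SE 0.09, limma adjusted p = 0.707) for Sox17 and 0.24 (SE 0.11, limma adjusted p = 0.784) for Foxa1.

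Markers of the tissues that a whole-embryo sample can hold were read beside the 10 genes, as means over each list relative to the single knockout mean. Visceral endoderm markers, among them the uptake receptor genes Cubn, Amn and Lrp2, stood at 2.04, -0.02 and 0.10 in the double knockout, against -0.04, -0.10 and 0.14 in the single knockout. Of these 10 markers 9 stood more than 1 log2 unit higher in the first array, and their summed signal on the linear scale ranged from 4232 to 16999 in the double knockout, against 3632 to 4543 in the single knockout. Parietal endoderm markers, from the other yolk sac endoderm, stood at -0.19, -0.01 and 0.02, against -0.01, 0.04 and -0.03, with 0 of 8 more than 1 higher and 1 more than 1 lower in the first array and summed signals of 8398 to 10456, against 10030 to 10799. Of these 2 lists, the visceral one stood high in the array where the 10 genes did. The parietal list was split, with 2 markers, Thbd and Pth1r, higher in the double knockout and 6 lower. In the first array Thbd stood 0.45 and Pth1r 0.30 above the mean of the others, and Nid1 stood at -1.07. Which tissue gave the excess was not tested.

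Liver and gut markers did not share the size of the excess. Hepatic bud markers stood at 0.13 in double knockout replicate 1, with 0 of 5 more than 1 higher and summed signals of 833 to 1014 in the double knockout, against 669 to 902.5 in the single knockout. Alb, their defining gene, read 4.33, 4.18 and 4.75 in the double knockout, against 4.51, 4.30 and 4.41 in the single knockout, with overlapping groups. Alb, Prox1 (4.07 to 4.27) and Cebpa (4.56 to 4.78) lay under the array medians of 5.79 to 5.82. Such dim probe sets may not show a change, so the hepatic bud list is a weak reading. Gut endoderm markers stood at 0.44 in that array, with 1 of 8 more than 1 higher and summed signals of 4863 to 6299, against 4687 to 5159.

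Some markers of adjoining tissue stood high with the 10 genes in double knockout replicate 1. Trophoblast and placenta markers stood at 2.19 there, with 5 of 7 more than 1 higher and summed signals of 224 to 926 in the double knockout, against 235 to 324 in the single knockout. Decidual markers stood at 0.93, with 2 of 5 more than 1 higher and summed signals of 1465 to 3583, against 1579 to 2204. The trophoblast markers Hand1 (0.32) and Tpbpa (0.0045) stood less than 1 above the mean of the others in double knockout replicate 1. So did the decidual markers Pgr (0.99) and Bmp2 (0.30), and Cryab (-0.36) stood below that mean. In double knockout replicates 2 and 3 the trophoblast list stood at -0.02 and -0.17, against -0.17 to 0.29 in the single knockout, and the decidual list at -0.15 and -0.30, against -0.16 to 0.24. In single knockout replicate 3, the highest of the other arrays for 5 of the 10 genes, the trophoblast and decidual lists stood at 0.29 and 0.24, above the other single knockout arrays. The decidual prolactin gene Prl8a2 read 9.63 in that array, against 8.26 and 8.32 in single knockout replicates 1 and 2. Outside double knockout replicate 1, the trophoblast markers Prl5a1, Cts7 and Cts8 read only 3.15 to 3.72, under the array medians of 5.79 to 5.82. The order of those arrays by the trophoblast list is thus a weak reading.

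Embryonic markers also stood apart, in double knockout replicate 1 most and for some lists in the other double knockout arrays too. Epiblast markers stood at 1.53, 0.38 and 0.52 in the double knockout, against 0.09, -0.14 and 0.05 in the single knockout. In the first array 2 of these 6 markers, Pou5f1 (4.42) and Nanog (3.15), stood more than 1 above the mean of the others and 1, Tdgf1 (-1.07), more than 1 below, with a median of 0.68. The summed epiblast signals were 3035 to 7122 in the double knockout, against 2527 to 2894 in the single knockout. Neural plate markers stood at -1.75, -0.35 and -0.30 in the double knockout, against -0.23, 0.10 and 0.13 in the single knockout (3 of 6 more than 1 lower in the first array, summed 2375 to 4022 against 3507 to 4059). Somite markers stood at -1.21, -0.28 and -0.29, against -0.24, 0.11 and 0.13 (3 of 5, summed 1182 to 1706 against 1744 to 2066). By these means, all 3 double knockout arrays lay beyond every single knockout array for the epiblast, neural plate and somite lists, and for none of the other marker lists. Gene by gene, groups did not overlap for 2 of 6 epiblast, 2 of 6 neural plate and 3 of 5 somite markers, against 11.4% of all genes. The lists were singled out by these values, so this describes the arrays and is no test of a group effect. Without double knockout replicate 1 the median difference was 0.29 for epiblast (6 of 6 higher) and -0.10 for somite (0 of 5 higher). For neural plate it was 0.061, with 4 of 6 higher, so the low mean rested on Zic1 (-1.39) and En2 (-1.19). Heart markers stood at -2.28, 0.02 and -0.31, against -0.19, 0.20 and -0.01 (5 of 6, summed 6449 to 26938 against 23861 to 28159). Primitive red cell markers stood at -3.95, 0.17 and -2.11 in the double knockout, against 0.02, 0.24 and -0.26 in the single knockout, with 4 of 7 more than 1 lower in the first array and summed signals of 416.5 to 34576, against 23554 to 33952. Double knockout replicate 3 thus had low red cell markers while the mean of its 10 lipoprotein and carrier genes, -0.11, lay within the single knockout range of -0.14 to 0.24. The part of these tissues, of embryo stage and of dissection in the lipoprotein values was not tested.

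**Figure D5:**
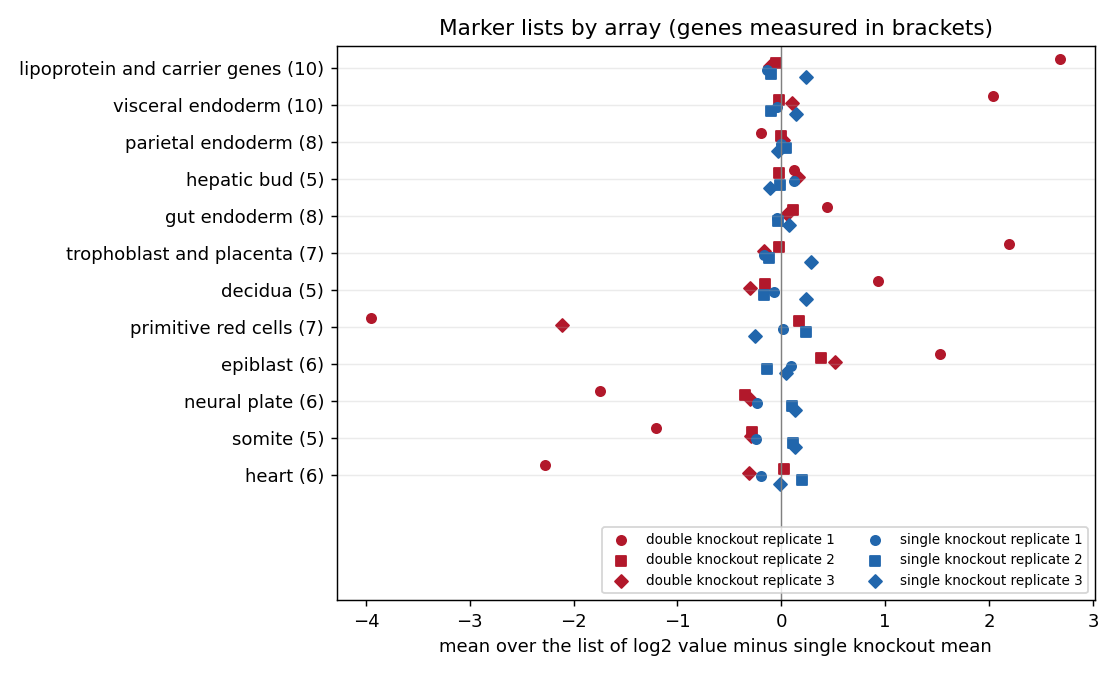
Mean over each list of the log2 value minus the single knockout mean (horizontal axis), by array, with double knockout arrays in red and single knockout arrays in blue. In double knockout replicate 1 the 10 genes (2.68), trophoblast (2.19), visceral endoderm (2.04), epiblast (1.53), decidua (0.93) and gut endoderm (0.44) markers stand to the right. Red cell (-3.95), heart (-2.28), neural (-1.75) and somite (-1.21) markers stand to the left, and parietal endoderm and hepatic bud markers within 0.2 of 0.

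Among 206 other genes of above-median brightness that varied across the arrays, the 5 most like the mean profile of the 10 genes were Cldn2, Amn, S100g, Folr1 and Npl, each with Pearson's r of 0.997 over the 6 arrays. Cldn2 encodes a claudin of tight junctions, Amn the membrane anchor of the receptor cubilin, S100g a calcium-binding protein, Folr1 a folate receptor and Npl a sialic acid lyase. Cldn2 had values of 9.36, 6.87 and 6.85 in the double knockout, against 6.75, 7.01 and 7.17 in the single knockout. The correlation rests on double knockout replicate 1, in which the 5 genes stood 1.74 (Folr1) to 2.92 (Amn) above the mean of the others. Without that array their group differences lay between -0.12 and 0.04.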

How the data were processed

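Per the submitters' processing notes, the authors made the deposited table of log2 values with RMA (robust multi-array average), which corrects background, brings arrays to a common distribution and summarises probes per probe set. The RMA version was not given in the sources used here, nor were the probe definitions. The log2 scale was read from the values (2.64 to 15.17). RMA compresses differences of dim probe sets, and 3 arrays a group limit the precision.

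Of 45101 probe sets, 34945 had a single gene symbol in the platform annotation. For each gene the brightest probe set on average was taken. Groups came from the sample titles. Groups were compared by a two-sided test in limma 3.58.1 (R 4.3.3; linear model with empirical Bayes moderation), without a replicate block, and p-values were adjusted by Benjamini-Hochberg over 18193 genes. The code was tested on simulated data.

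The 10 genes, the 4 pathway lists and 11 marker lists were chosen with earlier results of these data known. The 2 genes per pathway list were named by smallest unadjusted p, and the 5 genes of like profile by correlation; neighbours and other list genes named were picked after their values were seen. Fgb and Hnf4a each stand in the visceral endoderm list and in a pathway list. Array-weighted, trend, filter, probe set, normalization, threshold, block and leave-one-out alternatives were run.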

Additional observations from a re-analysis of the deposited data

How the results depend on the processing

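Of the 10 genes, 0 passed under any alternative. Of 140 values of single genes under the alternatives, 132 kept their direction and 8 reversed. Of the 8, 6 arose without double knockout replicate 1. The block, trend, dim-gene filter and all-probe-set settings left each gene's difference as it was, so those values could not reverse. All settings that did not leave out double knockout replicate 1 kept it in the fit. The count of 132 is thus no measure of robustness. Leaving out each array in turn gave -0.13 to 2.04 for Apob, -0.19 to 1.36 for Apoa1, -0.23 to 1.63 for Apoa4, -0.065 to 0.99 for Ttr, -0.35 to 0.93 for Rbp4 and -0.24 to 1.08 for Afp. With array weights, Rbp4 (-0.15) and Afp (-0.035) reversed and the median of the 10 genes was 0.18, in place of 0.82; the cause was not tested. The median ran from -0.098 (without double knockout replicate 1) to 1.28 (without double knockout replicate 2) when arrays were left out. The count of all genes past the threshold, 1 with all arrays, was 0 with the mean of a gene's probe sets and ran from 0 to 1 with arrays left out (0 without double knockout replicate 3 or any of single knockout replicates 1, 2 and 3, where Fzd2 was no longer called), while the 10 genes stayed at 0. With the replicate number as a block, 1 gene of all and 0 of the 10 passed, and the median stayed at 0.82. The block lowered the standard error of each of the 10 genes, as for Apob (0.87 in place of 1.06) and Afp (0.68 in place of 0.71). Deviations of same-numbered arrays from their group means had correlations of 0.09, -0.04 and -0.13 for replicates 1 to 3. Only for replicate 1 did the double knockout array correlate best with the single knockout array of its own number. Double knockout replicate 1 dominates the deviations in its group, so these correlations could hardly show pairs. The numbers were not taken as pairs.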
